A study of Mus musculus with 30 samples.

Results

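Loss of Gzf1 in mouse embryonic stem cells was examined at 3 stretches of the imprinted Dlk1-Dio3 domain by bisulfite amplicon sequencing. The comparison holds 6 of the 30 libraries of the series, taken by their labels: V6.5 cells with a Gzf1 knockout and wild-type V6.5 cells without a reporter, each read at the amplicons IG-CGI, IG-TRE and Gtl2-DMR. V6.5 is an established line of hybrid mouse embryonic stem cells, abbreviated mESC. Each genotype had 1 library per amplicon, so no value below has a replicate check. The labels do not say whether the knockout line is 1 clone, and name no other allele or treatment. The amplicons do not cover the Gzf1 gene, which lies on chromosome 2, and no marker gene was measured, so genotype and cell type rest on the labels.

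Imprinted genes are expressed from the copy of a single parent, and the choice is carried by DNA methylation that differs between the copies. In the Dlk1-Dio3 domain of chromosome 12 the paternal copy is methylated in the intergenic control region, the IG-DMR, and at the promoter of Meg3, a long non-coding RNA gene whose other name is Gtl2. The unmethylated maternal copy expresses Meg3, and the paternal copy expresses the protein-coding genes Dlk1 and Dio3. The IG-CGI is the CpG-rich element of the IG-DMR, the IG-TRE is its neighbouring transcriptional regulatory element, and the Gtl2-DMR marks the Meg3 promoter itself. Zfp57 is a zinc finger protein that binds a methylated hexamer and maintains methylation of imprinting control regions. Gzf1 is also a zinc finger protein, and knockout and wild-type cells for its gene are compared here.

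The Gtl2-DMR amplicon fell on the Meg3 promoter. The calls are numbered along amplicon references, and the placement rests on the spacing of the CpGs alone. Of 32851 mouse promoters in RefSeq's table for GRCm38.p6, only that of Meg3 held a run of at least 8 CpGs with the spacing of this amplicon, and it matched at 13 of 13 CpGs. The IG-CGI had 0 such placements. The IG-TRE, with 7 CpGs, could not reach a run of 8, so the search could not place it. Only promoters were searched, and both elements belong to the intergenic control region. They are not placed at genome coordinates here. The promoter, chr12:109540746-109541045 on the plus strand, is shown because 13 of the 15 CpGs measured at the Gtl2-DMR are the capitals in it.
Meg3 promoter: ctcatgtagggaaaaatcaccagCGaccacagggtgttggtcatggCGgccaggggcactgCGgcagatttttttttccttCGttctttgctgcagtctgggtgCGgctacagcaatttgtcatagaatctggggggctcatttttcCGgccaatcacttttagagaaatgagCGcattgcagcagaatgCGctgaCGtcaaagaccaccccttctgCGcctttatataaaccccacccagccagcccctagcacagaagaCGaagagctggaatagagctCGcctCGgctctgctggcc
The Meg3 start site is at 109540996. CpG 33 of the amplicon, the first capital pair, lies 227 bases upstream of it, and CpG 227 lies 33 bases upstream. CpG 271 lies 12 bases downstream of the start, and CpGs 334 and 339 lie beyond the sequence shown. A search of both strands found the Zfp57 hexamer TGCCGC on the minus strand at 109540806 to 109540811, where it holds CpG 71. The same letters occur in 11.6% of all promoters in the table. The cAMP response element TGACGTCA lies 57 to 50 bases upstream and holds CpG 206, and 1.79% of promoters hold these letters. A TATA box, TATATAA, lies 27 to 21 bases upstream and overlaps a match on the other strand, and 3.24% of promoters hold it. These matches describe the letters of the window and are not evidence of binding.

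All 3 amplicons were more methylated in Gzf1 knockout cells than in wild-type cells. Levels are given per CpG as methylated calls in percent of all calls there, and the level of a library is the unweighted mean over its CpGs. At the IG-CGI the level was 70.4% in the knockout library (95% interval 69.0 to 71.8) and 36.8% in the wild-type library (34.2 to 39.3). At the IG-TRE it was 59.0% in the knockout library (55.98 to 62.1) and 33.8% in the wild-type library (29.5 to 38.2). At the Gtl2-DMR it was 79.4% in the knockout library (74.3 to 84.4) and 54.7% in the wild-type library (43.5 to 65.9). None of these pairs of intervals overlapped. The gain, knockout minus wild type, was 33.7 points at the IG-CGI (30.8 to 36.5), 25.2 points at the IG-TRE (19.9 to 30.5) and 24.7 points at the Gtl2-DMR (12.4 to 37.0). In proportion to the calls that were unmethylated in wild type, the gain was 53.2% at the IG-CGI, 38.1% at the IG-TRE and 54.5% at the Gtl2-DMR.

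The gain was larger at the IG-CGI than at the IG-TRE, by 8.45 points (2.44 to 14.5). When each distinct call pattern was counted once, that difference was 4.43 points and its interval, -4.31 to 13.2, included 0. The IG-CGI gain exceeded that of the Gtl2-DMR by 8.97 points, with an interval of -3.66 to 21.6 that includes 0. IG-TRE and Gtl2-DMR gains differed by 0.52 points (-12.9 to 13.9), an interval too wide to call them alike. As shares of the calls unmethylated in wild type, the IG-TRE gain was 16.4 percentage points below that of the Gtl2-DMR (-33.4 to 0.641), and the IG-CGI gain was 1.24 below it (-17.4 to 14.9). By its values the Gtl2-DMR gain was the lowest in points and the highest as a share. The intervals of its contrasts included 0 on both scales, so its place in the order was not settled. The IG-CGI gain exceeded that of the IG-TRE as a share too, by 15.1 percentage points (8.34 to 21.9).

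Depth set how finely each amplicon could be read. The IG-CGI libraries held 1917 knockout reads and 1218 wild-type reads over 29 CpGs, with 938 to 1887 calls per CpG. The IG-TRE libraries held 388 knockout and 358 wild-type reads over 7 CpGs, with 169 to 373 calls per CpG. The Gtl2-DMR libraries held 119 knockout and 60 wild-type reads over 15 CpGs, with 18 to 117 calls per CpG. The reads are numbered, and many numbers are absent. As a percentage of the highest read number, the reads made up 38.4% in knockout and 24.4% in wild type at the IG-CGI. This was 7.77% in knockout and 7.20% in wild type at the IG-TRE. At the Gtl2-DMR it was 2.38% in knockout and 1.21% in wild type. Why the other numbers are absent is not given in the sources. Intervals of means and differences per CpG treat reads as the sampling unit. Without molecular identifiers, PCR reads cannot be counted as independent molecules, so all intervals and tests cover counting error only and compare these libraries, not the genotypes at large. By the submitters' naming, the IG-TRE pair came from 1 sequencing order, while the knockout and wild-type libraries of the IG-CGI and of the Gtl2-DMR came from different orders. There, order and genotype cannot be told apart.

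**Figure D1:**
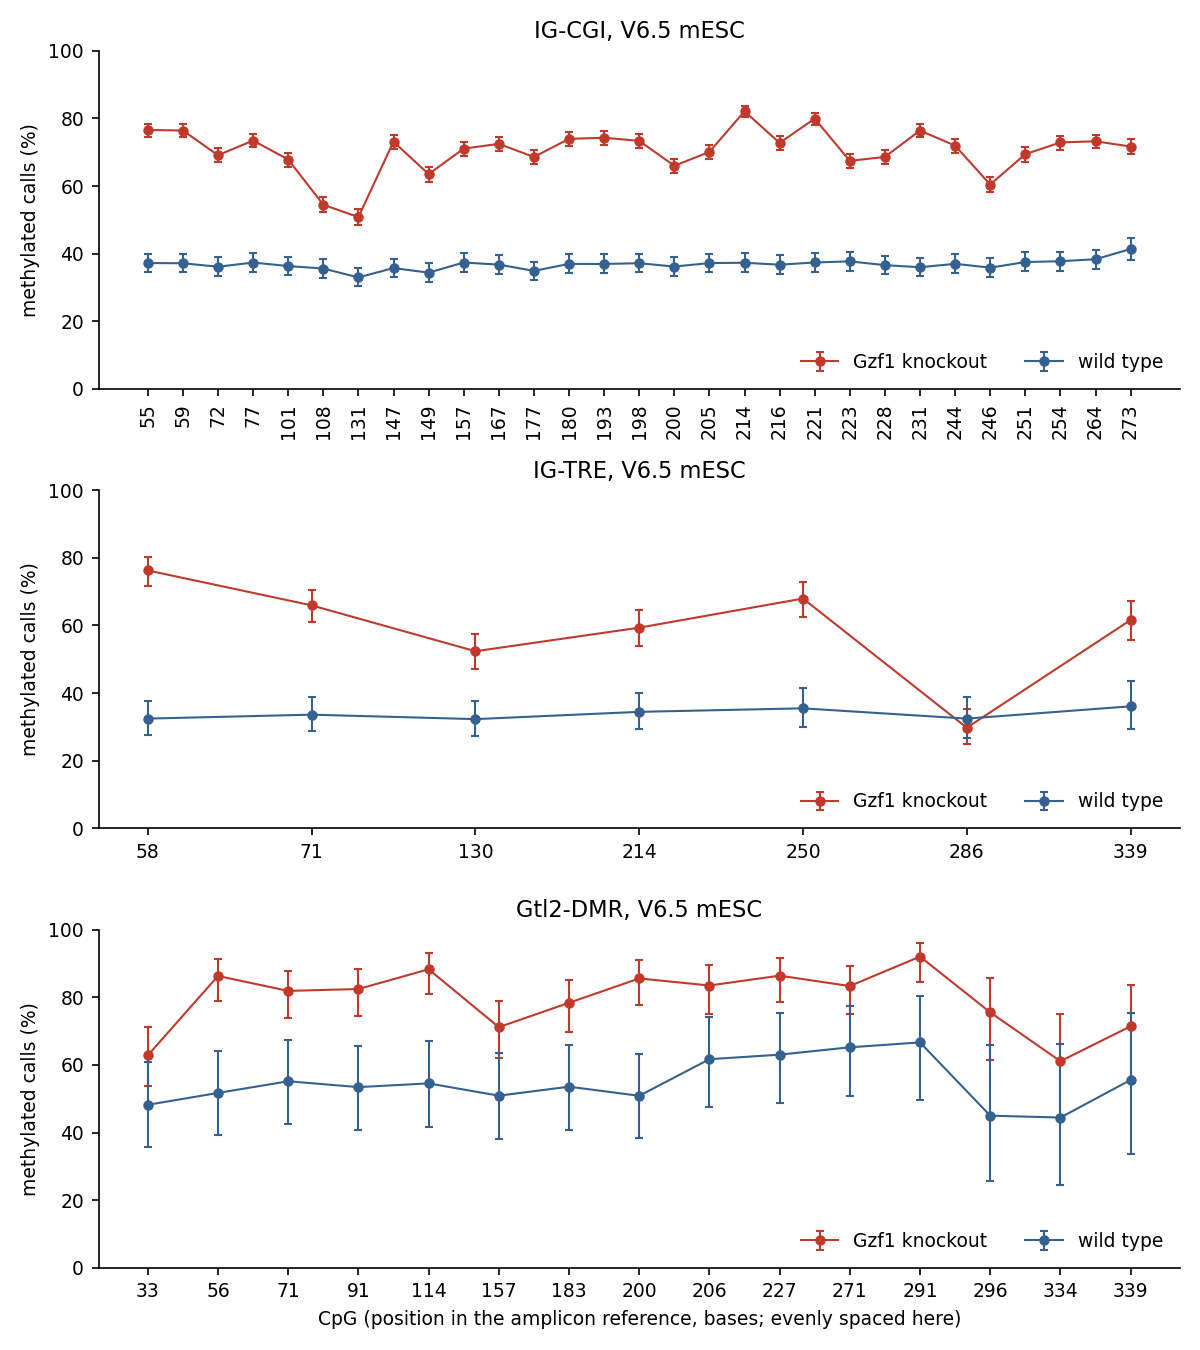
Percentage of methylated calls at each CpG of the 3 amplicons in V6.5 mESC, for the Gzf1 knockout library (red) and the wild-type library (blue), with Wilson 95% intervals; CpGs are evenly spaced along the axis and named by position in the amplicon reference. The wild-type levels of the IG-CGI lie between 33.0% and 41.4% while the knockout levels lie between 50.8% and 82.1%, and the curves meet at CpG 286 of the IG-TRE.

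At the IG-CGI, methylation was higher in knockout cells at 27 of 29 CpGs (93.1%). A CpG was called where Fisher's exact test on its calls gave a Benjamini-Hochberg adjusted p under 0.05 and the gap between the libraries was 20 points or more. The other 2 CpGs also differed by the test and missed the 20 points. CpG 214 rose most, to 82.1% in the knockout library, against 37.3% in the wild-type library, a gain of 44.8 points (Fisher's exact test, adjusted p = 5.42e-138). CpG 221 had 79.9% in the knockout library and 37.4% in the wild-type library. CpG 231 had 76.4% in the knockout library and 36.0% in the wild-type library. These 3 CpGs lie close together in the second part of the amplicon.

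The smallest gains of the IG-CGI were at CpGs 131, 108 and 246. CpG 131 had 50.8% in the knockout library and 33.0% in the wild-type library, and was the lowest CpG of both. Its gain of 17.9 points (14.3 to 21.4) was not called, although the adjusted p of Fisher's exact test was 5.23e-22. CpG 108, the neighbour of CpG 131, had 54.5% in the knockout library and 35.6% in the wild-type library, a gain of 18.9 points that was not called either. CpG 246 was called higher, with 60.4% in the knockout library and 35.9% in the wild-type library, a gain of 24.6 points (21.0 to 28.2).

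The IG-CGI was less evenly methylated in the knockout library. Levels spread over 31.3 points between CpGs in the knockout library and over 8.4 points in the wild-type library, where CpG 273 was the highest with 41.4%. The SD of the levels over CpGs was 6.68 points in the knockout library and 1.42 points in the wild-type library. The gain itself had an SD of 5.98 points over CpGs, against 1.02 points from counting error. The gain of 12 CpGs lay above the amplicon mean by an interval that excludes 0, and that of 8 CpGs lay below it, with intervals not widened for the number of CpGs.

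At the IG-TRE, 6 of 7 CpGs were higher in knockout cells (85.7%), and the CpG at position 286 was not. CpG 58 rose most, to 76.3% in the knockout library, against 32.5% in the wild-type library, a gain of 43.8 points. CpG 71 had 66.0% in the knockout library and 33.6% in the wild-type library, and CpG 250 had 68.0% in the knockout library and 35.5% in the wild-type library. These 3 CpGs gained more than the mean of the amplicon. CpG 339 had 61.6% in the knockout library and 36.1% in the wild-type library, and CpG 214 had 59.3% in the knockout library and 34.5% in the wild-type library. CpG 130, just inside the 20-point bound with a gain of 20.1 points, had 52.4% in the knockout library and 32.3% in the wild-type library. The adjusted p of Fisher's exact test was 2.21e-07 or lower at these 6 CpGs.

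CpG 286 had 29.8% in the knockout library (Wilson interval 24.9 to 35.2, 299 calls) and 32.5% in the wild-type library (26.7 to 38.8, 228 calls). Its difference of -2.69 points (-10.7 to 5.31) gave an adjusted p of 0.508 by Fisher's exact test. It deviated from the mean gain of the amplicon by -27.9 points (-34.0 to -21.8). Wild-type levels of the IG-TRE were nearly flat, with an SD over CpGs of 1.55 points, while the SD over CpGs was 14.9 points in the knockout library. The gain had an SD of 14.5 points, against 3.06 points from counting error, the widest of the 3 amplicons.

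The low level of CpG 286 in the knockout library was also present on reads that were otherwise methylated. Among reads with at least 4 other calls, all of them methylated, CpG 286 was methylated on 25 of 60 knockout reads, or 41.7% (Wilson interval 30.1 to 54.3), and on 37 of 45 wild-type reads, or 82.2% (68.7 to 90.7). The intervals do not overlap. At the other 6 CpGs the same share was 68.6% to 93.5% of knockout reads and 87.2% to 100% of wild-type reads. On reads whose other calls were all unmethylated, CpG 286 was methylated on 0 of 24 knockout reads (3 counts, the limit for a count of 0, would be 12.5%) and on 4 of 92 wild-type reads (4.35%). The singling out of CpG 286 for this count was made after its values were seen, and what set it apart was not tested.

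At the Gtl2-DMR, 11 of 15 CpGs were higher in knockout cells (73.3%). All 15 differences were positive. CpG 200 rose most, to 85.6% in the knockout library, against 50.9% in the wild-type library, a gain of 34.7 points (20.1 to 49.3; Fisher's exact test, adjusted p = 1.46e-05). CpG 56 had 86.3% in the knockout library and 51.7% in the wild-type library. CpG 114 had 88.3% in the knockout library and 54.5% in the wild-type library. These 3 CpGs lie 60, 204 and 146 bases upstream of the Meg3 start. CpG 71, inside the Zfp57 hexamer, had 81.9% in the knockout library and 55.2% in the wild-type library. CpG 206, inside the cAMP response element, had 83.5% in the knockout library and 61.7% in the wild-type library. Both were called higher, with gains of 26.7 and 21.8 points, and both were named for their place in the promoter after their values were seen.

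The 4 Gtl2-DMR CpGs without a call were at the ends of the amplicon or just past the Meg3 start. CpG 33 had 62.8% in the knockout library and 48.2% in the wild-type library, a gain of 14.6 points that was the smallest (Fisher's exact test, adjusted p = 0.112). CpG 334 was the lowest of both libraries, with 61.1% in knockout and 44.4% in wild type, and CpG 339 had 71.4% in the knockout library and 55.6% in the wild-type library. Each of these last 2 rested on 18 wild-type calls, and the intervals of their gains, -11.5 to 44.8 points and -11.7 to 43.5 points, reach from below 0 to above the largest gain of the amplicon. CpG 271 had 83.3% in the knockout library and 65.2% in the wild-type library and missed the call only on the 20 points, with an adjusted p of 0.0259 by Fisher's exact test. The highest CpG of both libraries was 291, with 92.0% in the knockout library and 66.7% in the wild-type library.

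The evenness of the gain along the Meg3 promoter was not settled at this depth. Its SD over the 15 CpGs was 6.84 points, and counting error alone gave 7.16 points. With the 12 CpGs that had at least 30 calls in both libraries, the SD was 6.53 points and counting error gave 4.91 points. The gains of 3 CpGs, 56, 114 and 200, lay above the amplicon mean by an interval that excludes 0, and that of 0 CpGs lay below it. These intervals were not widened for the 15 CpGs, and their lower ends were 1.32, 0.766 and 1.64 points. The 10 CpGs upstream of the start gained 26.4 points on average, with levels of 80.7% in the knockout library and 54.3% in the wild-type library, and 9 of them were called higher. The 5 CpGs downstream gained 21.3 points, with levels of 76.7% in the knockout library and 55.4% in the wild-type library, and 2 were called. Depth differed between the sides, with 46 to 58 wild-type calls per CpG upstream and 18 to 46 downstream. The counts of called CpGs are therefore not comparable, and the difference between the sides was not tested. The SD of the levels over CpGs was 9.17 points in the knockout library and 6.84 points in the wild-type library, counting error included.

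**Figure D2:**
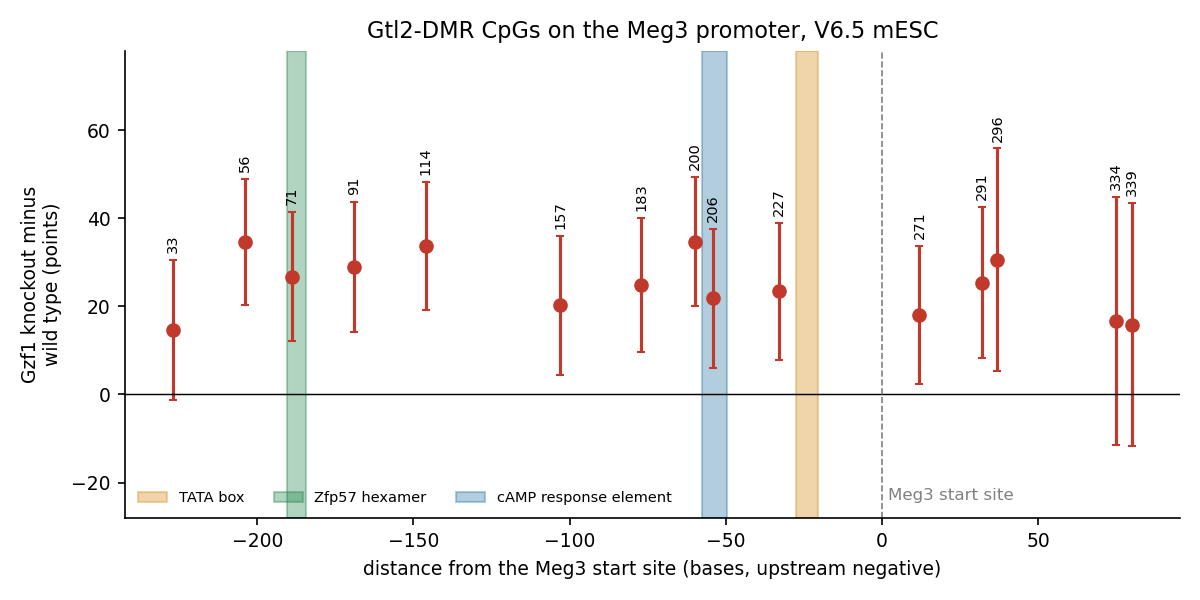
Gain of each Gtl2-DMR CpG (Gzf1 knockout minus wild type, points, with 95% intervals) against its distance from the Meg3 start site, with the Zfp57 hexamer, the cAMP response element and the TATA box as shaded bands. All 15 points lie above 0, between 14.6 and 34.7 points, and the intervals of CpGs 33, 334 and 339 reach below 0.

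Single reads showed how the gain was made up. A read was used if it had at least 5 calls, which left 1913 knockout and 1210 wild-type reads at the IG-CGI, 314 knockout and 260 wild-type reads at the IG-TRE, and 111 knockout and 58 wild-type reads at the Gtl2-DMR. The methylated fraction per read rose by 33.6 points on average at the IG-CGI (30.8 to 36.4), by 25.5 points at the IG-TRE (19.7 to 31.3) and by 28.1 points at the Gtl2-DMR (15.4 to 40.8). Its median at the IG-CGI was 82.8% in knockout reads and 3.45% in wild-type reads. At the IG-TRE the median was 69.0% in knockout reads and 14.3% in wild-type reads. At the Gtl2-DMR it was 90.9% in knockout reads and 66.7% in wild-type reads.

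Wild-type reads fell into a methylated and an unmethylated class, and in knockout cells the unmethylated class was much smaller. Reads with at most 30% of their calls methylated made up 15.2% of knockout reads and 60.2% of wild-type reads at the IG-CGI, a difference of -45.0 points (Newcombe interval -48.1 to -41.8). At the IG-TRE they made up 22.6% of knockout reads and 60% of wild-type reads, a difference of -37.4 points (-44.6 to -29.6). At the Gtl2-DMR they made up 9.91% of knockout reads and 41.4% of wild-type reads, a difference of -31.5 points (-45.0 to -17.8). The reads were not assigned to parental copies.

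Mostly methylated reads, at 70% methylated calls or more, were more frequent in knockout cells at each amplicon. They made up 66.3% of knockout reads and 34.5% of wild-type reads at the IG-CGI, 31.7 points more (28.3 to 35.1). At the IG-TRE they made up 50% of knockout reads and 26.2% of wild-type reads, 23.8 points more (16.0 to 31.3). At the Gtl2-DMR they made up 82.9% of knockout reads and 50% of wild-type reads, 32.9 points more (18.0 to 46.7). The mean gain per read was split into shifts between the 3 classes and shifts of the mean within them. The class shares accounted for 102% of it at the IG-CGI, 96.9% at the IG-TRE and 101.5% at the Gtl2-DMR. The part within classes is a net value, -0.549 points at the IG-CGI, in which opposite shifts of the classes cancel. The split therefore does not show that reads within a class were unchanged, and it holds for these class bounds only.

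Reads between the 30% and 70% bounds increased at the elements of the IG-DMR. They made up 18.6% of knockout reads and 5.29% of wild-type reads at the IG-CGI, a difference of 13.3 points (11.1 to 15.4). At the IG-TRE they made up 27.4% of knockout reads and 13.8% of wild-type reads, a difference of 13.5 points (6.92 to 19.9). At the Gtl2-DMR they were 8 of 111 knockout reads, or 7.21%, and 5 of 58 wild-type reads, or 8.62%, a difference of -1.41 points (-12.03 to 6.61).

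**Figure D3:**
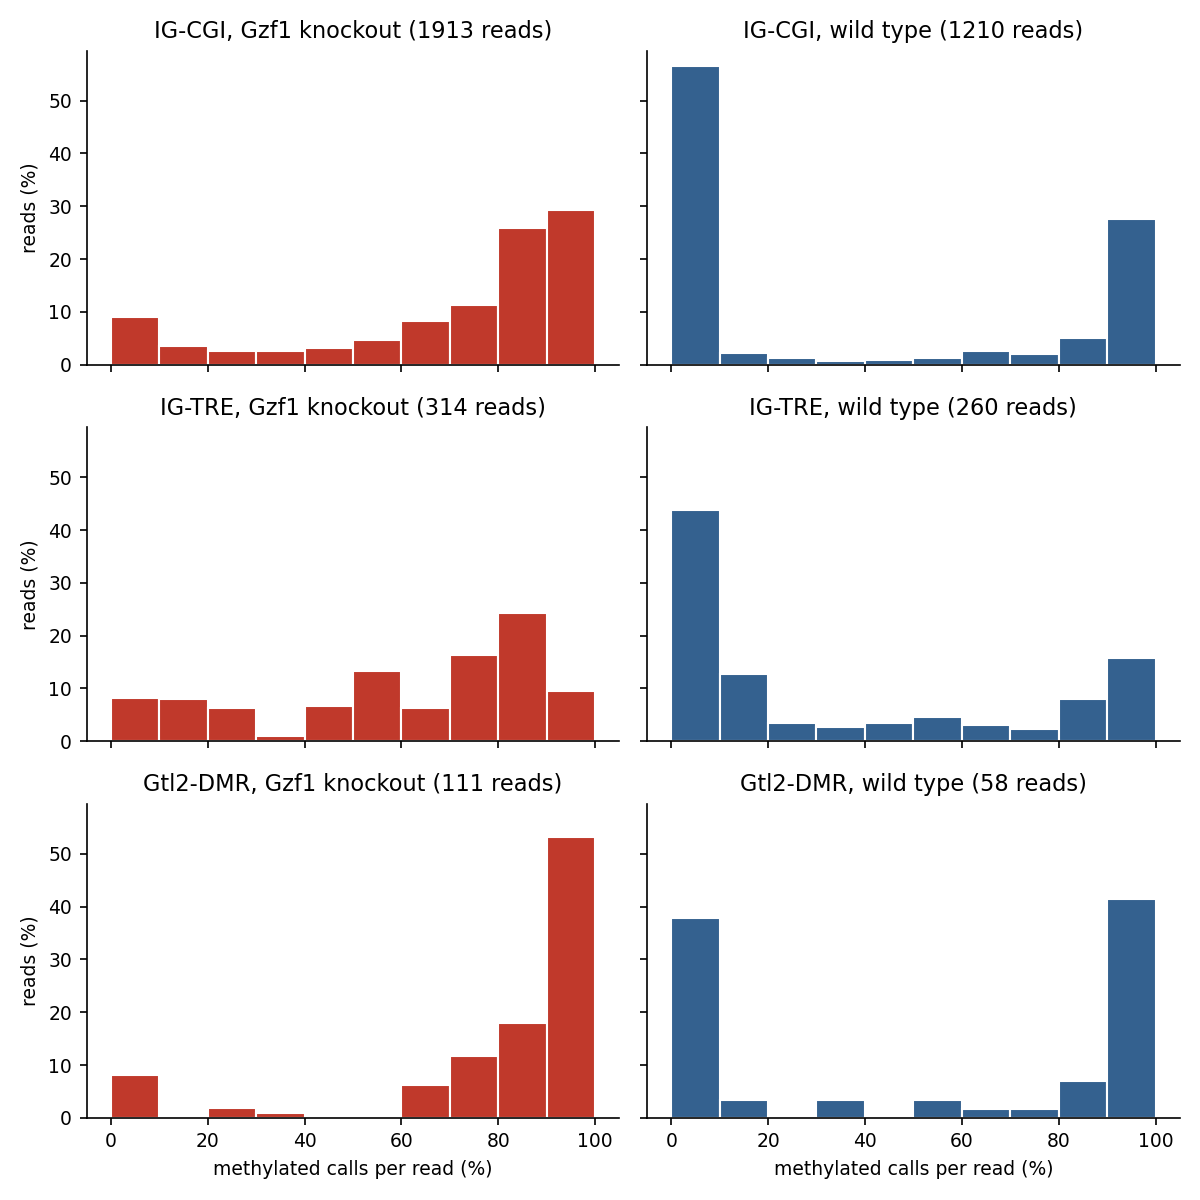
Share of reads (%) by the percentage of methylated calls per read in 10 bins, for reads with at least 5 calls; knockout libraries are on the left and wild-type libraries on the right, 1 row per amplicon. Wild-type reads pile up at both ends, while 15.2% of IG-CGI, 22.6% of IG-TRE and 9.91% of Gtl2-DMR knockout reads had at most 30% of calls methylated.

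Although methylation was higher, fully methylated reads were less frequent in the knockout libraries of the IG-CGI and the IG-TRE. At the IG-CGI, 7.53% of knockout reads had every call methylated, against 13.8% of wild-type reads, a difference of -6.27 points (-8.61 to -4.05). At the IG-TRE the share was 9.55% of knockout reads and 15.8% of wild-type reads, a difference of -6.22 points (-11.9 to -0.78). The IG-TRE share includes CpG 286. Among reads with at least 4 other calls, all methylated, that CpG was methylated on 25 of 60 knockout and 37 of 45 wild-type reads. How much of the IG-TRE difference rests on this CpG was not tested. At the Gtl2-DMR it was 31.5% of knockout reads and 25.9% of wild-type reads, a difference of 5.67 points (-9.13 to 18.9). Reads without any methylated call were also less frequent in the knockout. They made up 5.96% of knockout and 44.5% of wild-type reads at the IG-CGI, 8.28% of knockout and 43.8% of wild-type reads at the IG-TRE, and 7.21% of knockout and 34.5% of wild-type reads at the Gtl2-DMR.

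Within the mostly methylated and the mostly unmethylated class, knockout reads were less pure at the IG-CGI and the IG-TRE. In mostly methylated reads of the IG-CGI, 89.0% of calls were methylated in knockout and 95.03% in wild type, as means over reads. The same mean was 83.3% in knockout and 92.6% in wild type at the IG-TRE, and at the Gtl2-DMR 90.8% in knockout and 94.5% in wild type. In mostly unmethylated reads of the IG-CGI, 8.74% of calls were methylated in knockout and 1.84% in wild type. At the IG-TRE this was 12.9% in knockout and 4.64% in wild type, and 5.73% in knockout against 1.83% in wild-type reads of the Gtl2-DMR. Both classes therefore lay nearer to the middle in knockout cells at the IG-CGI and the IG-TRE, as a description of the class means. The Gtl2-DMR means went the same way on few reads. Its mostly unmethylated class held 11 knockout reads, 8 of them without a methylated call, and 24 wild-type reads, 20 of them without one.

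The CpGs with small gains were also the gaps in methylated reads. In mostly methylated IG-CGI reads, CpG 131 was methylated in 70.7% of knockout calls (Wilson interval 68.1 to 73.2) and in 89.4% of wild-type calls (86.0 to 92.1). CpG 108 was methylated in 72.3% of knockout calls and in 91.4% of wild-type calls, and CpG 246 in 75.4% of knockout calls and 93.2% of wild-type calls. At CpG 214, which gained most, the share was 97.0% in knockout and 98.0% in wild type. In mostly unmethylated reads, CpG 214 was methylated in 20% of knockout calls (15.7 to 25.1) and in 0.567% of wild-type calls (0.221 to 1.45). CpG 131 was methylated there in 0.694% of knockout calls and in 1.12% of wild-type calls. At the IG-TRE, CpG 286 was methylated in 45.9% of the knockout calls of mostly methylated reads and in 82.3% of the wild-type calls. In mostly unmethylated IG-TRE reads, CpG 58 was methylated in 30% of knockout calls and in 1.94% of wild-type calls. The class of a read is set by the same calls, so these values describe the classes and carry no test.

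Neighbouring CpGs of a read differed in their calls more often in knockout cells. At the IG-CGI, 19.0% of 51115 neighbouring call pairs differed in knockout reads and 4.35% of 32327 in wild-type reads, a difference of 14.7 points (14.0 to 15.4). The share was higher in the knockout library at each of the 28 neighbouring CpG pairs, and ranged from 11.4% to 31.9% in knockout and from 1.65% to 7.001% in wild type. The highest knockout value was between CpGs 108 and 131. At the IG-TRE, 33.1% of pairs differed in knockout reads and 12.05% in wild-type reads, a difference of 21.0 points (17.7 to 24.3), with 6 of 6 CpG pairs higher in knockout. At the Gtl2-DMR, 14.9% differed in knockout reads and 7.64% in wild-type reads, a difference of 7.29 points (3.23 to 11.4), with 10 of 14 CpG pairs higher in knockout. With reads called at all 15 CpGs only, that last difference was 2.9 points (-4.1 to 9.91).

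Calls along the mixed reads of the IG-CGI, those between 30% and 70%, alternated more in knockout cells, as a description of these reads. They changed state 8.83 times on average in knockout and 4.64 times in wild type, and the median length of their longest run of equal calls was 7 calls in knockout and 13 calls in wild type. Of 1312 knockout reads called at all 29 CpGs, 759 call patterns were distinct, and of 795 such wild-type reads, 199 were. The commonest IG-CGI pattern had all CpGs methylated in the knockout library, where it took 6.17% of these reads, and none methylated in the wild-type library, where it took 43.9%. At the IG-TRE the commonest pattern had 6 of 7 CpGs methylated in the knockout library (10.7% of 233 reads) and none methylated in the wild-type library (40.9% of 154 reads).

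The same genotypes were read at the same amplicons in E10.5 embryo trunk, the libraries most like these, with 1 library per side and each pair from 1 sequencing order. The IG-CGI gained less in mESC, with 33.7 points, than in trunk, with 40.8 points, a difference of -7.17 points (-11.0 to -3.35). The IG-TRE gained 25.2 points in mESC and 23.1 points in trunk, a difference of 2.15 points (-4.7 to 9.0). The Gtl2-DMR gained 24.7 points in mESC and 30.8 points in trunk, a difference of -6.12 points (-22.7 to 10.48). In proportion to the calls unmethylated in wild type, the gain was smaller in mESC at the IG-CGI and the IG-TRE. It was 53.2% in mESC and 74.3% in trunk at the IG-CGI, a difference of -21.1 percentage points (-24.7 to -17.6). At the IG-TRE it was 38.1% in mESC and 63.6% in trunk, a difference of -25.5 (-34.6 to -16.3). At the Gtl2-DMR it was 54.5% in mESC and 73.3% in trunk, a difference of -18.8 (-38.7 to 1.06). Knockout levels were lower in mESC than in trunk at all 3 amplicons. The knockout level was 70.4% in mESC and 85.9% in trunk at the IG-CGI, a difference of -15.5 points (-17.2 to -13.8). At the IG-TRE it was 59.0% in mESC and 86.8% in trunk, a difference of -27.7 points (-31.4 to -24.1). At the Gtl2-DMR it was 79.4% in mESC and 88.8% in trunk, a difference of -9.41 points (-16.0 to -2.82). Wild-type mESC levels were lower than those of wild-type trunk at the IG-CGI, by an mESC minus trunk difference of -8.33 points (-11.8 to -4.9), and at the IG-TRE, by -29.9 points (-35.7 to -24.1). At the Gtl2-DMR that difference was -3.29 points (-18.5 to 11.9).

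The change in uniformity along reads differed between mESC and trunk. Knockout reads of the IG-CGI were less uniform in both sources by discordant calls, and more so in mESC, while those of the IG-TRE were less uniform in mESC and more uniform in trunk. At the IG-CGI, the knockout minus wild-type difference in discordant neighbouring calls was 14.7 points in mESC and 3.86 points in trunk, a contrast of 10.8 points (9.81 to 11.8). At the IG-TRE it was 21.0 points in mESC and -5.93 points in trunk (-10.1 to -1.80), a contrast of 26.9 points (21.6 to 32.2). At the Gtl2-DMR it was 7.29 points in mESC and 1.69 points in trunk, a contrast of 5.6 points (-0.254 to 11.4). Fully methylated reads, less frequent in knockout mESC, were more frequent in knockout trunk, by 11.9 points at the IG-CGI and 18.9 points at the IG-TRE. The mESC minus trunk contrasts in that share were -18.2 points (-21.7 to -14.6) at the IG-CGI and -25.1 points (-35.1 to -14.8) at the IG-TRE, and -7.51 points (-28.6 to 13.5) at the Gtl2-DMR. How much of the IG-TRE contrast rests on CpG 286, which did not gain in mESC, was not tested.

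**Figure D4:**
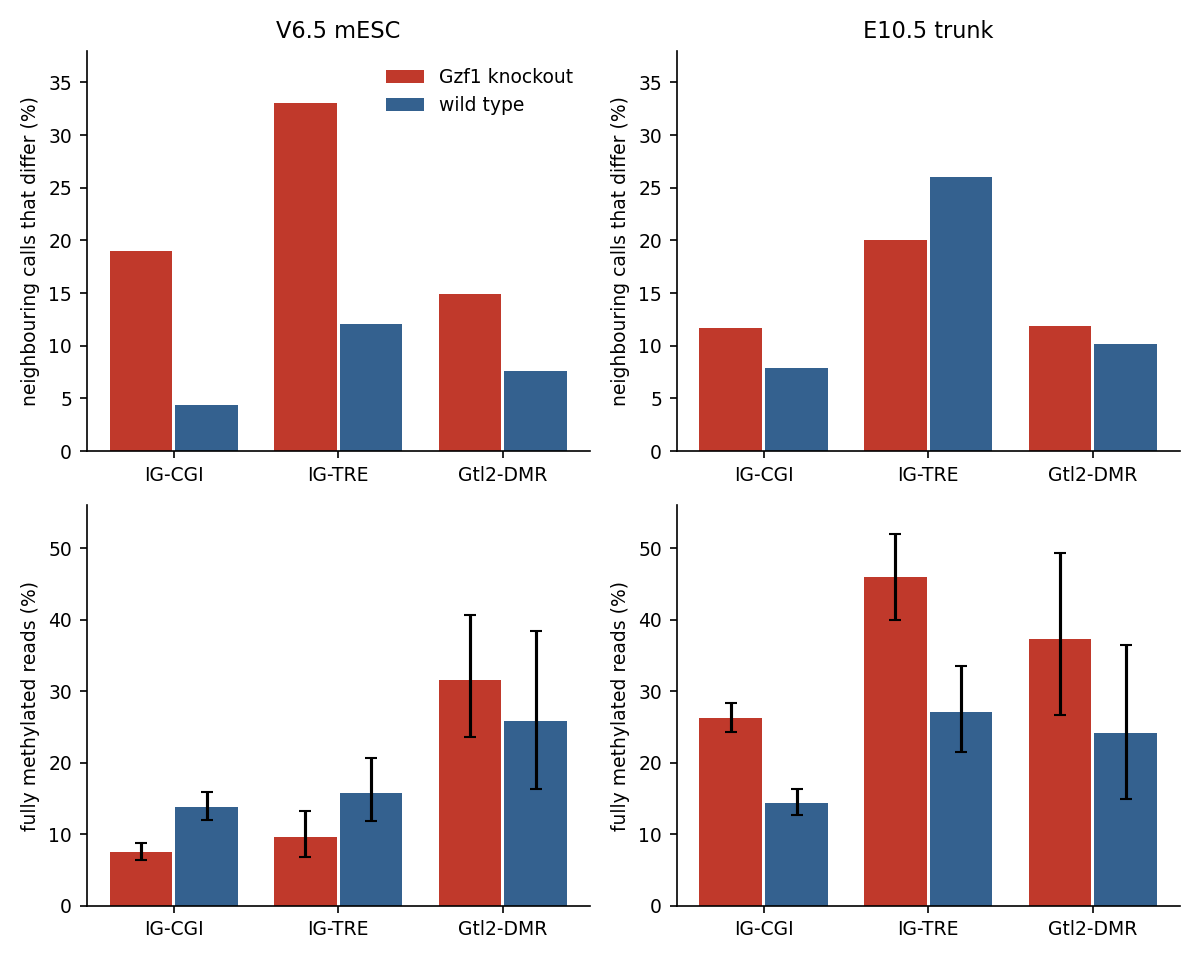
Share of neighbouring calls on a read that differ (top, %) and share of reads with every call methylated (bottom, %, with Wilson 95% intervals), for Gzf1 knockout (red) and wild type (blue) in V6.5 mESC (left) and E10.5 trunk (right). At the IG-CGI and IG-TRE of mESC the knockout bar is higher above and lower below, while in trunk the knockout bar is the higher at the bottom of both.

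CpG by CpG, the IG-TRE gains in points differed between the 2 sources. CpG 286 differed by -2.69 points between knockout and wild type in mESC and by 25.3 points in trunk, a contrast of -28 points (-44.2 to -11.7, widened for 7 CpGs). In trunk, CpG 286 had 83.5% in the knockout library and 58.2% in the wild-type library. CpG 58 gained 43.8 points in mESC and 24.1 points in trunk, a contrast of 19.7 points (8.07 to 31.3). CpG 71 gained 32.3 points in mESC and 16.3 points in trunk, a contrast of 16.0 points (3.31 to 28.8). The intervals of the other 4 CpGs included 0. Wild-type trunk was already at 72.5% at CpG 58 and 71.2% at CpG 71, and as a share of the calls unmethylated in wild type the direction at both turned. On that scale CpG 58 gained 64.9% in mESC and 87.8% in trunk, a contrast of -23.0 percentage points (-36.9 to -9.04). CpG 71 gained 48.7% in mESC and 56.6% in trunk, a contrast of -7.89 (-30.8 to 15.05). CpG 286 kept its direction on that scale, with -3.98% in mESC and 60.5% in trunk, a contrast of -64.5 (-89.3 to -39.7). CpGs 214 and 339 then also gained less in mESC, by contrasts of -32.5 (-53.1 to -11.9) and -40.4 (-61.8 to -19.0). On trunk reads with at least 4 other calls, all methylated, CpG 286 was methylated on 102 of 114 knockout reads (89.5%) and 42 of 47 wild-type reads (89.4%), beside 41.7% of such knockout reads and 82.2% of such wild-type reads in mESC.

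**Figure D5:**
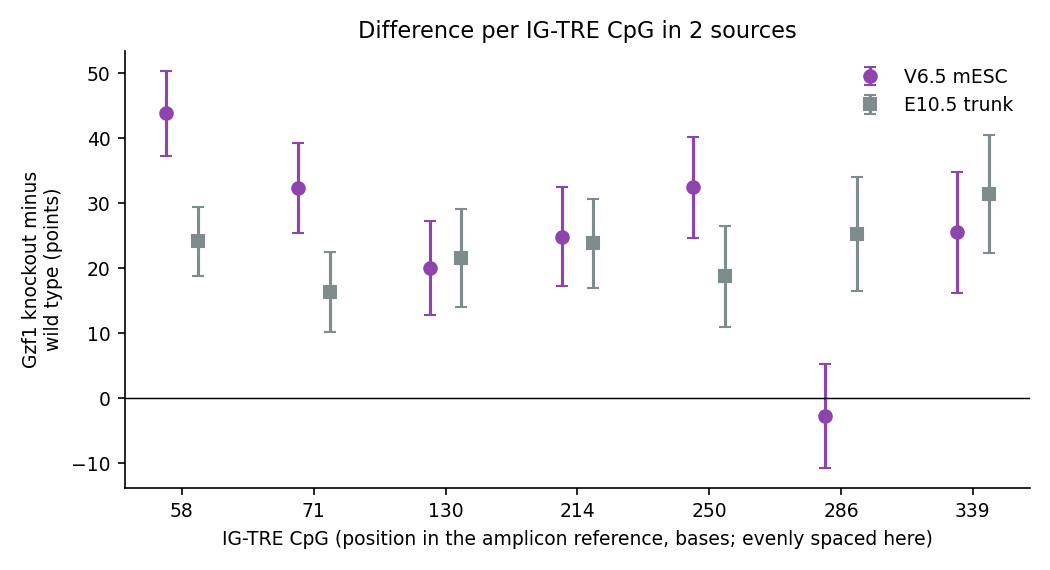
Gain of each IG-TRE CpG (Gzf1 knockout minus wild type, points) in V6.5 mESC (purple circles) and E10.5 trunk (grey squares), with 95% intervals not widened for the number of CpGs. The trunk gains lie between 16.3 and 31.4 points, while the mESC gains run from -2.69 points at CpG 286 to 43.8 points at CpG 58.

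Reads of the same call pattern may be PCR copies of a molecule or separate molecules, which these files do not tell apart. With identical patterns counted once, the gain was 16.0 points at the IG-CGI (11.9 to 20), 11.5 points at the IG-TRE (3.79 to 19.3) and 13.8 points at the Gtl2-DMR (-0.00595 to 27.6). Calls of higher methylation then stood at 7 IG-CGI CpGs, 2 IG-TRE CpGs and 0 Gtl2-DMR CpGs by Fisher's exact test. This count weighs the uniform wild-type reads least, since 455 patterns made up the 1218 wild-type reads of the IG-CGI and 1289 patterns the 1917 knockout reads.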

How the data were processed

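Bisulfite-converted DNA was amplified by nested PCR and sequenced on the Oxford Nanopore platform, per the labels' protocols. Each deposited file holds 1 call per read and CpG. Per the file headers the calls came from Bismark's methylation extractor 0.22.3; Bismark 0.24.2 and mm10 are named in the submitters' processing notes. The deposited values are calls (methylated or unmethylated), not levels. How reads were filtered is not given in the sources.

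Groups followed the genotype, source and locus labels. Reads were aligned to amplicon references, and positions called in 10% or more of a library's reads were taken as amplicon CpGs. No mESC library had more than 0.293% of its calls elsewhere. Where a CpG had 10 calls or more on each side, knockout and wild type were compared with Fisher's exact test (two-sided), adjusted by Benjamini-Hochberg within the amplicon, and called at an adjusted p under 0.05 and 20 points or more. Intervals of means and of differences per CpG use a variance clustered by read. Wilson and Newcombe intervals were used for shares of reads, and a difference between 2 gains combines the variances of the 4 libraries. Neighbouring calls are consecutive calls on a read with at least 5 calls, passing over CpGs without a call, while values per CpG pair use every read called at both. The tests were also run on simulated reads of the same depths. Those reads were drawn as independent molecules of 2 classes without PCR copies, so the simulation cannot show how PCR copies affect the tests.

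All CpGs of the IG-TRE are named. At the IG-CGI and Gtl2-DMR those named are the 3 largest and 3 smallest gains, those not called, and the highest and lowest of each library. Gtl2-DMR CpGs 71 and 206 fall outside this rule and were named for their place in motifs after their values were seen. Alternatives covered the minimum calls and difference, the adjustment, read filters, class bounds, pooled calls and identical patterns. The amplicons and lists were chosen with earlier results of these data known. The measures of fully methylated reads and of discordant neighbours, with their alternatives, and the gains of mESC and trunk as shares of unmethylated calls were chosen after seeing the data.

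Bisulfite does not separate 5-methylcytosine from 5-hydroxymethylcytosine. Only CpG calls were in the files used, and conversion at non-CpG cytosines was not checked. In the Dnmt1 knockout IG-CGI library, which lacks the maintenance methyltransferase, 1.09% of calls were methylated on average over CpGs, a bound for that library only. Promoter sequences and gene coordinates came from RefSeq tables of GRCm38.p6. Software was Python 3.11.15 with numpy 2.4.6, pandas 2.3.3, scipy 1.17.1, statsmodels 0.14.6 and matplotlib 3.10.9.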

Additional observations from a re-analysis of the deposited data

Results flagged for a closer look

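The results below differ between mESC and E10.5 trunk for the same genotypes and amplicon, by a 95% interval of the difference itself that excludes 0. Each source had 1 library per genotype, so the intervals cover counting error only, and variation between libraries was not tested.

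The gain of the IG-CGI, Gzf1 knockout minus wild type, differed by -7.17 points between mESC and trunk. At the IG-TRE the interval of the mean contrast included 0, while the gain of single CpGs differed by more than their intervals. It differed by 19.7 points at CpG 58, by 16 points at CpG 71 and by -28 points at CpG 286. As shares of the calls unmethylated in wild type, the contrasts were -23.0 percentage points at CpG 58, -7.89 at CpG 71 with an interval that includes 0, and -64.5 at CpG 286, so the direction at CpGs 58 and 71 depended on the scale. The knockout effect on discordant neighbouring calls differed by 10.8 points at the IG-CGI and by 26.9 points at the IG-TRE. Wild-type levels of that IG-TRE measure also differed, with 12.05% in mESC and 26.0% in trunk. The knockout effect on fully methylated reads differed by -18.2 points at the IG-CGI and by -25.1 points at the IG-TRE. The IG-TRE value includes CpG 286, and how much of it rests on that CpG was not tested. In mESC the IG-CGI pair came from different sequencing orders and the IG-TRE pair from 1 order, and in trunk each pair came from 1 order. Whether sequencing order moved the IG-CGI values was not tested.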

How the results depend on the processing

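Over 30 results, 120 alternatives were run. Of these, 103 stayed alike, 10 were weaker, 1 was stronger and 6 turned the direction. For results with an interval, alike meant the same direction and no change in whether the interval excluded 0. For counts of called CpGs it meant a count within a set ratio of the reported one, and a lower count was weaker. For the SD of the gain it meant a similar value on the same side of counting error. Counting identical call patterns once left 7 CpGs called higher at the IG-CGI, 2 at the IG-TRE and 0 at the Gtl2-DMR. It gave 5.97 points for the mostly methylated share of the IG-TRE (-8.02 to 18.8), 13.8 points for the mean gain of the Gtl2-DMR, and 4.43 points for the IG-CGI minus IG-TRE gain (-4.31 to 13.2). It also gave -4.45 points for fully methylated IG-TRE reads and turned the IG-TRE minus Gtl2-DMR gain to -2.25 points, the mESC minus trunk gain of the IG-TRE to -4.09 points and the fully methylated share of the Gtl2-DMR to -11.2 points. A minimum difference of 30 points left 3 CpGs at the IG-TRE and 4 at the Gtl2-DMR, since fewer differences reach that bound. Taken as shares of the calls unmethylated in wild type, the IG-CGI minus Gtl2-DMR gain turned to -1.24, the IG-TRE minus Gtl2-DMR gain to -16.4 and, added after seeing the data, the mESC minus trunk gain of the IG-TRE to -25.5 percentage points. A minimum of 30 calls left 12 Gtl2-DMR CpGs, whose gains had an SD of 6.53 points, above the 4.91 points from counting error. With reads called at every CpG, the Gtl2-DMR difference in discordant neighbours was 2.9 points, on 33 knockout and 17 wild-type reads. The cause of the other changes was not tested. The intervals of the results that turned included 0 before and after, except that of -25.5 (-34.6 to -16.3). No paired analysis was possible because each group compared had 1 library, and for the same reason no replicate could be left out. Depth limits the Gtl2-DMR most, with 18 wild-type calls at its least covered CpGs.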
